A study of Mus musculus with 18 samples.

Results

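The immediate early genes described here are Fos, Fosb, Jun, Junb, Jund, Egr1, Atf3, Ier2, Ier3 and Myc. These 10 genes were chosen by symbol and matched to their Ensembl mouse gene identifiers, out of 28030 genes in the table. Of the 10 genes, 9 passed the filter on low counts and were among the 12477 genes tested. Fosb did not pass, and its values are given below without a test.

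RNA was sequenced from hepatocytes of C57BL/6J wild-type male mice aged 12 weeks and kept on normal chow. Perfusion with the detergent digitonin, which lyses the zone it reaches first, was used to obtain hepatocytes of the pericentral (PC) or the periportal (PP) side of the liver lobule. All mice had been trained for 3 days to a 16 h fast and 8 h of feeding, and on the last day food came with 20% sucrose water. Fed mice were killed at clock hour 13, after 4 h of feeding. In the fasted groups food and sucrose were removed at clock hour 13, and the mice were killed after 8 h, at clock hour 21, or after 24 h, again at clock hour 13. Fasting and clock hour both set the 8 h groups apart from the fed groups and from the 24 h groups, and cannot be told apart there. Each of the 6 groups of zone and state held 3 libraries, not said to come from separate animals, so p-values measure the spread between these libraries. Every library came from isolated hepatocytes and no library of intact liver is among the 18, so the share of any level that the isolation adds cannot be told apart from the level in the animal.

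Immediate early genes are transcribed soon after a signal reaches the cell, without new protein synthesis. Kinase cascades and cAMP act on factors already bound at their promoters, such as SRF with its ELK partners, and CREB. FOS and JUN proteins pair as the transcription factor AP-1, ATF3 joins the same family of leucine zipper proteins, EGR1 is a zinc finger factor, and MYC drives growth genes. In liver these genes are known for their rise after partial hepatectomy, and they are also known to rise when tissue is dissociated into cells.

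The promoter stretches below are shown because Fos and Atf3, whose values at 8 h against fed had opposite signs, both carry the core of the cAMP response element, and because Jun and Junb can be read beside them. Each line gives 150 bases directly before the RefSeq start of the gene, on the strand of the gene, from GRCm38.p6. Fos lies on the plus strand at chr12:85473740-85473889. The others lie on the minus strand, Atf3 at chr1:191183334-191183483, Jun at chr4:95052223-95052372 and Junb at chr8:84978749-84978898. The Atf3 stretch lies inside the annotated gene (chr1:191170296-191218039), so its start is an inner one and not the outermost. Capitals mark the cAMP response element core in Fos (TGACGT) and, on the opposite strand, in Atf3. They also mark the TATA box of Fos (TATAAA), the CCAAT box of Jun and Junb, and in Jun the site TGACATCA.
Fos: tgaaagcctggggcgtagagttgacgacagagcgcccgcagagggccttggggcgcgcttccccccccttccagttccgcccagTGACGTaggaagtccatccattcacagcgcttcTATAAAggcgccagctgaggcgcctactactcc
Atf3: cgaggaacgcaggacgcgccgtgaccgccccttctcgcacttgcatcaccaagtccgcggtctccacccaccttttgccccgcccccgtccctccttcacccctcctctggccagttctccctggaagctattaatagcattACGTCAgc
Jun: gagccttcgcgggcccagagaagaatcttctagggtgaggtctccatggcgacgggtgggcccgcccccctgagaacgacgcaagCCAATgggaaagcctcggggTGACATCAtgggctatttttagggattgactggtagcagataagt
Junb: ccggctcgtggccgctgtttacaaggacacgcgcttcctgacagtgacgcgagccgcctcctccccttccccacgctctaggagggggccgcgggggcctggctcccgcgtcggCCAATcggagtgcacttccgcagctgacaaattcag

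In Fos, TGACGT lay 66 to 61 bases before the start and TATAAA 33 to 28 bases before it. In Atf3, ACGTCA lay 8 to 3 bases before the inner start used. In Jun, CCAAT lay 65 to 61 bases and TGACATCA, an AP-1 variant known from this promoter, 45 to 38 bases before the start. In Junb, CCAAT lay 36 to 32 bases before the start. Promoters of 7 of the 10 genes were searched, over 250 bases before 1 start each and on both strands. Egr1, on chromosome 18, was left out of this search, and Ier2 and Myc had no window. Of 32851 windows of that length, 6.47% held TGACGT, 1.55% the full element TGACGTCA (which contains TGACGT), 12.4% TATAAA, 33.8% CCAAT, 2.93% TGACATCA, 4.46% an AP-1 site (TGACTCA or TGAGTCA) and 1.47% the CArG box bound by SRF. No full TGACGTCA, AP-1 site or CArG box was found in the 7 windows, which says only that these letters are not there. The Jund window ends at chr8:70697738, upstream of the annotated gene start at chr8:70698949, so the bases next to that start were not searched. These matches are a description of the letters and were not tied to any measured binding.

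Estimated counts per library ranged from 1.84e+07 to 2.64e+07, and mitochondrial genes took 6.93% to 9.80% of them. Levels are given in CPM, counts scaled to a common library total with TMM factors, always for replicates 1, 2 and 3 in this order where 3 values are listed. The pericentral and periportal markers fixed as a check (4 each) passed the test in the labelled direction over the states, when fed and at 8 h, and 3 of 4 pericentral and 4 of 4 periportal ones at 24 h. Some libraries stood apart on them. Pericentral 24 h replicate 2 had the lowest Glul of its zone, the glutamine synthetase of the cells around the central vein (111 CPM, within the 62.6 to 175 CPM of the periportal groups), and a periportal marker sum of 1793 CPM against 869 and 806 CPM in replicates 1 and 3. Pericentral marker sums reached 1508 CPM in periportal fed replicate 2 (536 and 420 CPM in replicates 1 and 3) and 2044 CPM in periportal 24 h replicate 1 (1175 and 561 CPM in replicates 2 and 3). All 8 hepatocyte markers were detected in each of the 18 libraries. Markers of other cell types were low but not evenly spread. The 12 sinusoidal endothelial markers summed to 5.32 to 16.3 CPM in pericentral and 5.61 to 65.9 CPM in periportal libraries, and the 16 Kupffer cell and leukocyte markers to 0.93 to 8.68 CPM and 0.969 to 32.2 CPM. Averaged over the states, 10 of 11 tested endothelial markers were higher in periportal libraries by edgeR. So were 8 of 10 tested Kupffer cell and leukocyte markers. Some tested markers passed the filter on low counts through periportal libraries, so no fold is given and these counts are descriptive. Vsig4, for example, had pericentral group means of 0.135 to 0.224 CPM, where 3 counts are 0.104 to 0.168 CPM. Of 8 bile duct (cholangiocyte) markers 5 were tested and 3 were higher, Sox9 by 1.02, Spp1 by 1.14 and Pkhd1 by 0.64, with sums of 22.4 to 43.5 CPM in pericentral and 35.5 to 66.6 CPM in periportal libraries. The 5 tested stellate cell and fibroblast markers all lay above 0, with sums of 1.80 to 9.39 CPM and 2.53 to 24.8 CPM. Among the defining markers, Lyve1 was at 0 in 3 libraries, Adgre1 in 4, Timd4 in 4, Marco in 6 and Epcam, a bile duct marker, in all 18. Stab2, Clec4g, Kdr, Clec4f, Vsig4 and Cd5l were detected in all 18. In any library, at most 1 of the 12 endothelial and 7 of the 16 Kupffer cell and leukocyte markers were at 0.

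All 10 genes are annotated as protein coding. Set per kilobase of transcript, Jund was the most abundant of the 10 genes, with a median of 23.0 CPM per kb over the 18 libraries (14.9 to 34.3). Ier2 followed with a median of 18.8 CPM per kb, then Junb with 16.9 and Jun with 15.3. Fos had a median of 4.72, Egr1 of 4.18 and Myc of 3.09 CPM per kb. Ier3 and Atf3 were low, with medians of 0.759 and 0.743 CPM per kb. The ranges of neighbours in this order overlapped in each case, so the order within the upper 4 genes, and that among Fos, Egr1 and Myc, lies within the spread of the libraries. Jund never fell below 14.9 CPM per kb and Ier3 never rose above 1.19.

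**Figure D1:**
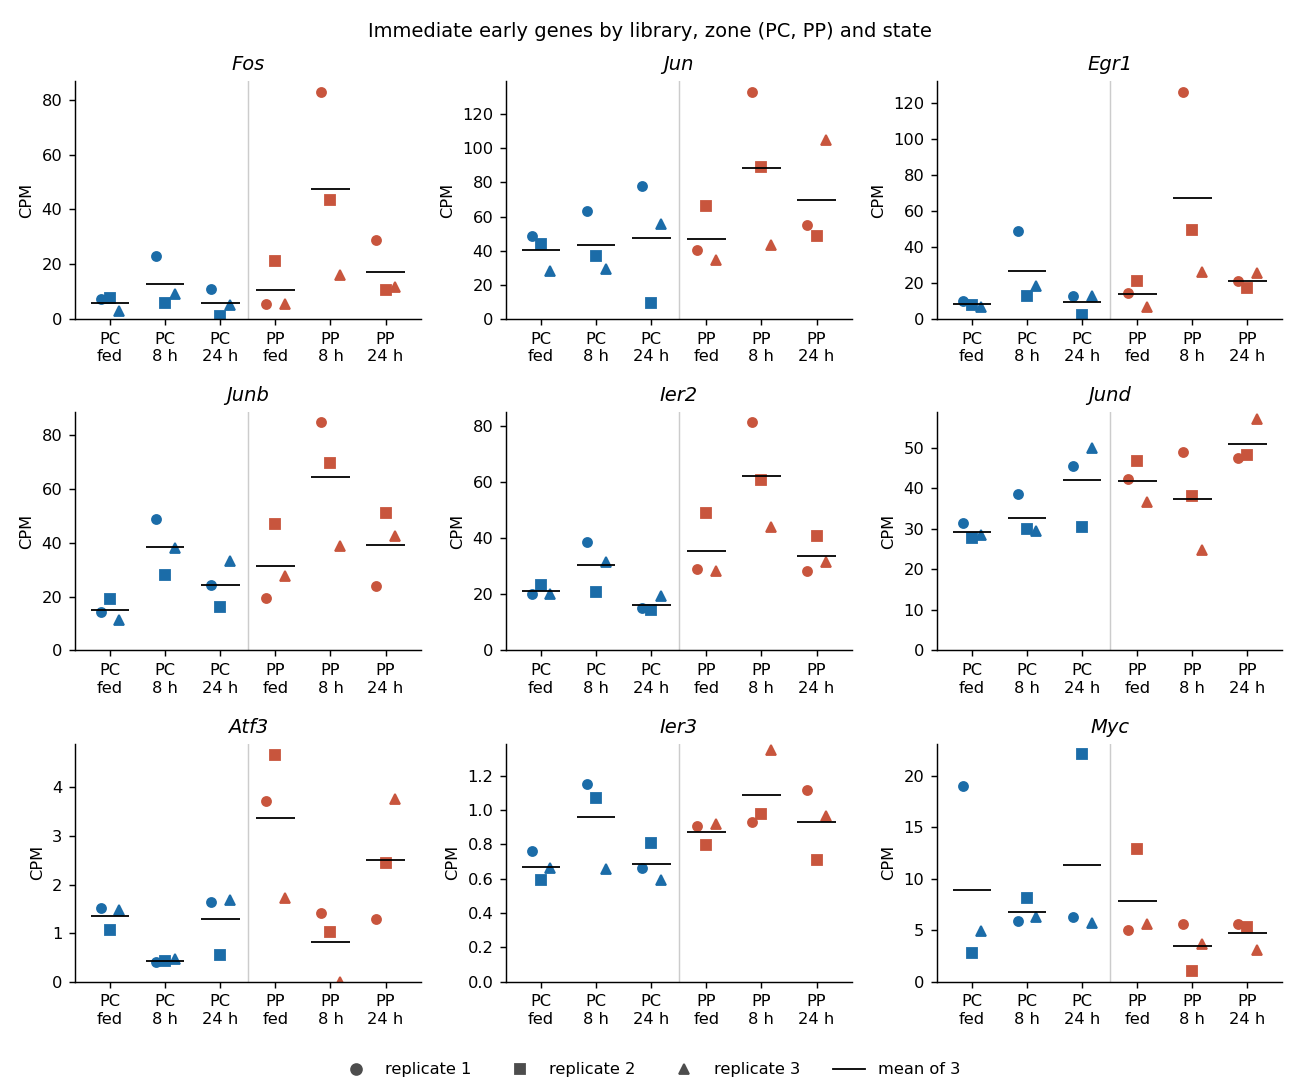
Level of each of the 9 tested genes in CPM (vertical axis, linear, from 0) in the 18 libraries, by zone (PC pericentral, PP periportal) and state (horizontal axis). Symbols mark replicates and lines the mean of 3. Ier2 was higher in periportal than in pericentral libraries of the same state throughout, and Fos, Egr1 and Jun spread widely within groups, with periportal 8 h replicate 1 at 82.7, 126 and 133 CPM.

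Ier2 encodes a small nuclear protein of the immediate early response. Its gene (ENSMUSG00000053560) spans chr8:84661331-84662852 on the minus strand of GRCm38. It stood at 20.1, 23.4 and 20.1 CPM in pericentral and at 29.0, 49.2 and 28.3 CPM in periportal libraries of fed mice. After 8 h it stood at 38.6, 21.0 and 31.5 CPM in pericentral and at 81.7, 60.7 and 44.2 CPM in periportal libraries. After 24 h it stood at 15.0, 14.5 and 19.5 CPM in pericentral and at 28.3, 41.0 and 31.6 CPM in periportal libraries. In each state, every periportal library was above every pericentral one, although the zones overlapped across states. Both zones had their highest mean at 8 h.

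Averaged over the states, Ier2 was higher in periportal hepatocytes by 0.94 on the log2 scale (SE 0.15, edgeR adjusted p = 0.00038). The background is wide in this comparison, where 20.3% of all genes tested were called. Of the 9 tested immediate early genes 2 were called, Ier2 and Junb, which is 22.2% and near that background. The median log2 difference of the 9 genes was 0.84, with 8 of 9 above 0, beside a median of 0 over all genes tested. In bulk libraries, fewer cells with a transcript and less of it per cell cannot be told apart. The edgeR call of Ier2 stood under each of the 25 alternatives run, with log2 differences from 0.83 to 1.01 and adjusted p from 9.69e-09 to 0.00147.

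Within single states the zone calls were fewer. At 8 h Ier2 alone was called (log2 difference of 1.03, SE 0.26, edgeR adjusted p = 0.0257), beside 7.14% of all genes. At 24 h again Ier2 alone was called (1.04, SE 0.27, edgeR adjusted p = 0.0401), beside 4.17% of all genes. The 8 h call was lost without pericentral 8 h replicate 2 or 3 or periportal 8 h replicate 1 or 2 (edgeR adjusted p of 0.0634 to 0.11). It was lost too with no filter beyond 1 count (0.0579), with scaling that left out the 20 most abundant genes (0.0541) and with only these 2 groups in the fit (0.12). The 24 h call was lost on leaving out any of 10 libraries: any pericentral fed or pericentral 24 h library, replicate 3 of the pericentral 8 h group, replicate 2 of the periportal 8 h group, and replicates 2 and 3 of the periportal 24 h group (edgeR adjusted p of 0.0526 to 0.166). No filter beyond 1 count (0.0859), the same scaling (0.068) and the replicate block (0.0631) also ended it. In the fed state 0 of 9 genes were called by edgeR, beside 8.01% of all genes, with 3 genes (Junb, Jund and Ier2) at an unadjusted p under 0.05. DESeq2 called 2 and limma-voom 0, with no share of all genes computed for these tools. The fed log2 difference of Ier2 was 0.74 (SE 0.26, edgeR adjusted p = 0.109).

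Junb, an AP-1 subunit that often restrains JUN, was the other gene called between the zones. Its gene (ENSMUSG00000052837) spans chr8:84974484-84978718 on the minus strand. It stood at 14.1, 19.2 and 11.2 CPM in pericentral and at 19.6, 47.0 and 27.6 CPM in periportal fed libraries, a narrow separation of the zones. After 8 h it stood at 48.6, 28.1 and 38.1 CPM against 84.6, 69.4 and 38.7 CPM, and after 24 h at 24.1, 16.1 and 33.1 CPM against 24.0, 51.1 and 42.4 CPM, where the zones overlapped. The log2 difference over the states was 0.84 (SE 0.23, edgeR adjusted p = 0.019). The annotated gene overlaps Prdx2 on the opposite strand, and use of strand is not given in the sources used here, so reads from the overlap may not be told apart. Jun, Jund and Atf3 overlap noncoding genes on the opposite strand (Junos, Gm11175 and Gm24748), with the same limit. Prdx2 stood at 82.0 to 113 CPM in all libraries, with a log2 zone difference of 0.04 (edgeR adjusted p = 0.718).

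The other zone differences did not pass the edgeR test. Fos was higher by 1.42 (SE 0.48, adjusted p = 0.0532), Egr1 by 1.09 (SE 0.40, adjusted p = 0.0716), Atf3 by 1.07 (SE 0.41, adjusted p = 0.082) and Jund by 0.33 (SE 0.12, adjusted p = 0.066) on the log2 scale in periportal libraries. Jun differed by 0.60 (95% interval -0.16 to 1.36) and Ier3 by 0.33 (-0.06 to 0.71). Myc was the only gene of the 9 with a value below 0, at -0.81 (-1.73 to 0.11). DESeq2 called 6 of the 9 genes here (Fos, Junb, Jund, Egr1, Atf3 and Ier2) and limma-voom 4 (Fos, Junb, Egr1 and Ier2). The share of all genes that these tools called was not computed, so these counts have no background beside them. Leaving out periportal 8 h replicate 3 also gave 6 edgeR calls, and leaving out pericentral 8 h replicate 1 gave 4. For these reduced fits too, no share of all genes was computed, so the counts are not read as a result about these genes. Fos was called as well without pericentral 24 h replicate 1 (adjusted p = 0.0334) and Jund without pericentral 24 h replicate 3 (adjusted p = 0.0449). Without periportal 8 h replicate 1 the values fell to 1.19 for Fos (adjusted p = 0.108), 0.81 for Egr1 (0.154), 0.84 for Atf3 (0.19) and 0.24 for Jund (0.142).

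Markers of endothelial, Kupffer and bile duct cells were higher in the same periportal libraries as a whole, those of stellate cells lay above 0, and their part in the zone differences was not tested. Within the periportal 8 h group the order of the libraries differed. Periportal 8 h replicate 1, with the highest Fos, Jun, Junb, Egr1 and Ier2 of all 18 libraries, had the lowest endothelial sum of the periportal libraries (5.61 CPM) and their lowest Kupffer cell sum (0.969 CPM). Periportal 8 h replicate 3 had the highest endothelial sum of all (65.9 CPM) and the lowest Fos, Jun, Junb, Egr1 and Ier2 of its group. In the periportal 24 h group, Kupffer cell sums were 2.18, 15.4 and 32.2 CPM. Atf3 rose in the same order (1.29, 2.45 and 3.77 CPM), and Junb and Ier2 were lowest in replicate 1. Fos was highest in that replicate (28.9 CPM). Without periportal 8 h replicate 1, Ier2 differed between the zones by 0.85 (edgeR adjusted p = 0.000761) and Junb by 0.75 (edgeR adjusted p = 0.0409) over the states. Without pericentral 24 h replicate 2, the library low in Glul, the values were 0.91 (edgeR adjusted p = 0.00124) and 0.76 (edgeR adjusted p = 0.0374).

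**Figure D2:**
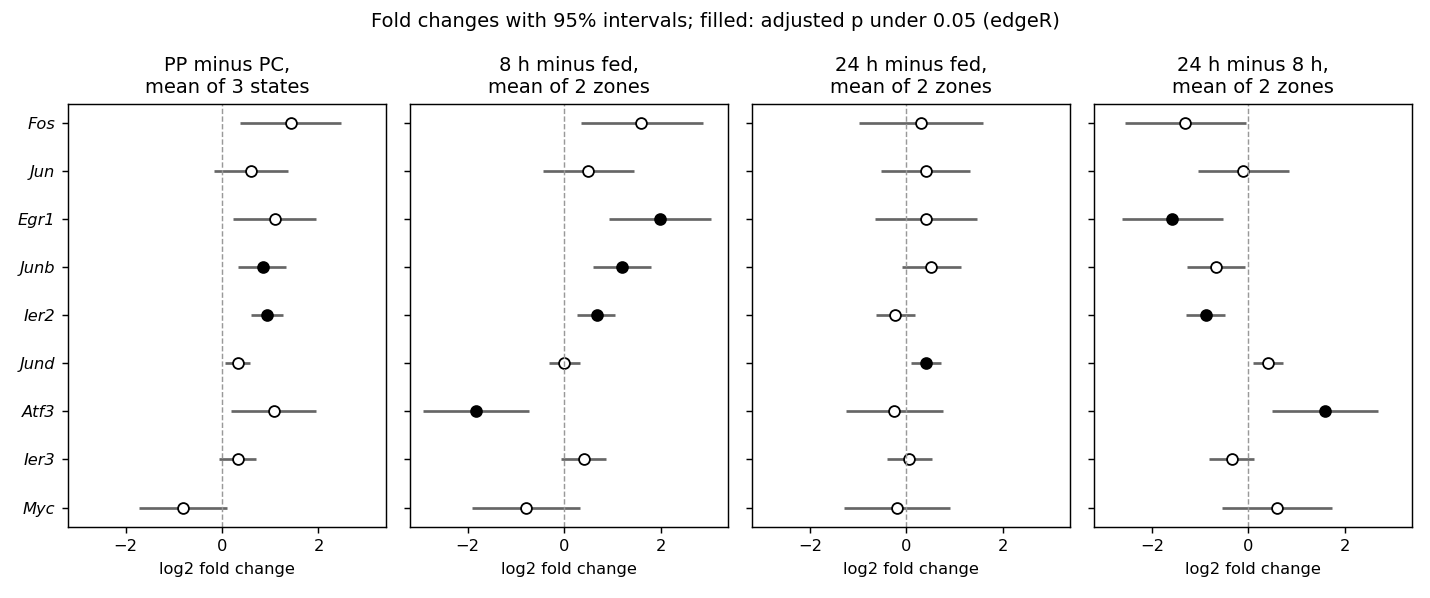
Log2 fold change of each gene (horizontal axis) with its 95% interval in the 4 averaged comparisons of the edgeR fit. Filled points mark an adjusted p under 0.05. Calls stand for Junb and Ier2 by zone, Egr1, Junb, Ier2 and Atf3 at 8 h against fed, Jund at 24 h against fed, and Egr1, Ier2 and Atf3 at 24 h against 8 h.

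After 8 h without food, Egr1, Junb and Ier2 were higher and Atf3 was lower than in fed mice, averaged over the zones. These 4 calls among 9 genes (44.4%) stand beside 26.4% of all genes tested. The median log2 change of the 9 genes was 0.50, with 6 above 0, beside a median of 0.01 over all genes. Each of the 4 genes was called by edgeR, DESeq2 and limma-voom, under every alternative run and without any single library. Over the same comparison the tested endothelial markers had a median log2 change of -0.06 (1 of 11 called, higher) and the Kupffer cell and leukocyte markers one of 0.46 with 8 of 10 above 0.

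Egr1, a zinc finger factor that responds to growth factors and to hormones, was among the genes that rose. Its gene (ENSMUSG00000038418) spans chr18:34859823-34864984 on the plus strand. In fed mice it stood at 10.2, 7.80 and 6.62 CPM in pericentral and at 14.3, 21.1 and 6.87 CPM in periportal libraries. After 8 h it stood at 48.9, 12.9 and 18.3 CPM in pericentral and at 126, 49.8 and 26.2 CPM in periportal libraries. In both zones each 8 h library was above each fed one, and the 8 h libraries spread over a wide range. The log2 change was 1.98 (SE 0.49, edgeR adjusted p = 0.00881), and it was 1.58 (edgeR adjusted p = 0.0261) without periportal 8 h replicate 1.

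Junb rose by 1.20 on the log2 scale (SE 0.28, edgeR adjusted p = 0.00606), from a mean of 14.8 ± 4.07 CPM (SD, n = 3) in fed pericentral libraries to 38.3 ± 10.2 CPM at 8 h. Ier2 rose by 0.67 (SE 0.19, edgeR adjusted p = 0.0148). For Junb the pericentral groups did not overlap, while the periportal ones did, since fed replicate 2 (47.0 CPM) lay above 8 h replicate 3 (38.7 CPM). Prdx2, which overlaps Junb, changed by -0.08 (edgeR adjusted p = 0.419).

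Atf3, a stress-induced factor that mostly represses its targets, went the other way. Its gene (ENSMUSG00000026628) spans chr1:191170296-191218039 on the minus strand. In pericentral libraries it stood at 1.52, 1.06 and 1.48 CPM when fed, at 0.41, 0.419 and 0.464 CPM after 8 h and at 1.64, 0.552 and 1.68 CPM after 24 h. In periportal libraries it stood at 3.71, 4.67 and 1.73 CPM when fed, at 1.41, 1.02 and 0 CPM after 8 h and at 1.29, 2.45 and 3.77 CPM after 24 h. In both zones all 8 h libraries were below all fed ones. The 0 in periportal 8 h replicate 3 allows up to 0.14 CPM (3 counts, counting error only). The log2 change at 8 h was -1.83 (SE 0.52, edgeR adjusted p = 0.0148). It ranged from -2.37 to -1.55 over 26 alternatives.

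Fos, the AP-1 subunit most used as a mark of recent signalling, did not pass the 8 h test. Its gene (ENSMUSG00000021250) spans chr12:85473890-85477273 on the plus strand. In pericentral libraries it stood at 7.43, 7.72 and 3.08 CPM when fed, at 22.9, 6.09 and 9.32 CPM after 8 h and at 11.1, 1.14 and 5.34 CPM after 24 h. In periportal libraries it stood at 5.45, 21.2 and 5.73 CPM when fed, at 82.7, 43.3 and 16.1 CPM after 8 h and at 28.9, 10.6 and 11.7 CPM after 24 h. Fed and 8 h libraries overlapped in both zones. The log2 change was 1.60 (SE 0.59, 95% interval 0.34 to 2.87, edgeR adjusted p = 0.0596). It was called by DESeq2 (adjusted p = 0.0247) and limma-voom (adjusted p = 0.0443), and by edgeR on leaving out replicate 2 of the periportal fed, replicate 3 of the periportal 8 h or replicate 2 of the pericentral 24 h group (adjusted p of 0.0262 to 0.0443). Without periportal 8 h replicate 1 the change was 1.28 (edgeR adjusted p = 0.152), and over all alternatives it ranged from 1.24 to 2.08 with adjusted p up to 0.161.

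Jun, the founding JUN subunit of AP-1, showed no called change in any comparison. Its gene (ENSMUSG00000052684) spans chr4:95049034-95052222 on the minus strand. In pericentral libraries it stood at 48.9, 44.1 and 28.4 CPM when fed, at 63.1, 37.2 and 29.6 CPM after 8 h and at 77.8, 9.52 and 55.5 CPM after 24 h. In periportal libraries it stood at 40.4, 66.2 and 34.6 CPM when fed, at 133, 89.2 and 43.2 CPM after 8 h and at 55.3, 48.8 and 105 CPM after 24 h. All groups of a zone overlapped. The log2 change at 8 h was 0.50 (95% interval -0.43 to 1.44), so a rise or a fall of moderate size is within the interval.

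Within single zones, 8 h against fed gave 1 call each. In pericentral libraries it was Junb (log2 change of 1.37, SE 0.41, edgeR adjusted p = 0.0378), beside 13.8% of all genes. In periportal libraries it was Egr1 (2.26, SE 0.69, edgeR adjusted p = 0.0452), beside 14.4% of all genes. The Junb call was lost without pericentral fed replicate 1 or 3, pericentral 8 h replicate 1 or 3 or periportal 8 h replicate 2 (edgeR adjusted p of 0.0501 to 0.134). The Egr1 call was lost on leaving out any of 14 of the 18 libraries (edgeR adjusted p of 0.0514 to 0.201), all but replicates 1 and 2 of the pericentral 8 h, replicate 3 of the periportal 8 h and replicate 2 of the pericentral 24 h group. Without periportal 8 h replicate 1 its value was 1.44. In the periportal zone DESeq2 and limma-voom each called 4 genes, again without a share of all genes beside them.

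The change at 8 h was also compared between the zones, as periportal change minus pericentral change. By edgeR 0 of 9 genes were called, as of all genes tested (0%), and 0 reached an unadjusted p under 0.05. DESeq2 called 0 and limma-voom 0. For Egr1 the difference was 0.56 (95% interval -1.52 to 2.63) and for Fos 1.07 (-1.43 to 3.56). For Junb it was -0.34 (-1.54 to 0.87), for Ier2 0.29 (-0.50 to 1.08) and for Atf3 -0.39 (-2.62 to 1.84). The intervals are wide enough to hold sizeable zone differences in either direction.

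At 24 h against fed, Jund alone was called, averaged over the zones, beside 34.5% of all genes tested. Jund, the AP-1 subunit present in resting cells, has its gene (ENSMUSG00000071076) at chr8:70698949-70700616 on the plus strand. In pericentral libraries it stood at 31.4, 27.7 and 28.5 CPM when fed, at 38.6, 30.1 and 29.6 CPM after 8 h and at 45.5, 30.4 and 50.1 CPM after 24 h. In periportal libraries it stood at 42.4, 46.8 and 36.7 CPM when fed, at 49.0, 38.1 and 24.9 CPM after 8 h and at 47.5, 48.2 and 57.2 CPM after 24 h. The fed and 24 h groups did not overlap in the periportal zone and overlapped in the pericentral one through 24 h replicate 2. The log2 change was 0.40 (SE 0.15, edgeR adjusted p = 0.0464). The call was lost on leaving out any of 14 libraries (edgeR adjusted p of 0.0522 to 0.125), all but replicate 1 of the pericentral 8 h, replicates 1 and 3 of the periportal 8 h and replicate 2 of the pericentral 24 h group. It was lost too under limma-voom (adjusted p = 0.0547).

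The other 8 tested genes were not called at 24 h against fed. The log2 change was 0.30 for Fos (95% interval -0.98 to 1.58), 0.40 for Egr1 (-0.66 to 1.46) and 0.52 for Junb (-0.09 to 1.13). Ier2 stood at -0.23 (-0.63 to 0.17) and Atf3 at -0.25 (-1.26 to 0.76). In pericentral libraries alone edgeR called 0 genes, beside 21.8% of all genes, and 1 gene (Jund) had an unadjusted p under 0.05. DESeq2 called 0 and limma-voom 0. Jund was called there without periportal 8 h replicate 3 or pericentral 24 h replicate 2 (edgeR adjusted p of 0.0363 and 0.0262). In periportal libraries alone edgeR called 0 genes, beside 19.6% of all genes, and 0 had an unadjusted p under 0.05. DESeq2 and limma-voom called 0 each. The difference between the zones in this change gave 0 edgeR calls as well, beside 0.016% of all genes, and 0 had an unadjusted p under 0.05. There too DESeq2 and limma-voom called 0 each.

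From 8 h to 24 h, Ier2 and Egr1 fell and Atf3 rose, averaged over the zones. These 3 calls of 9 (33.3%) stand beside 20.2% of all genes tested. This comparison shares the 8 h libraries with 8 h against fed, so its values are not separate support for the 8 h change. Clock hour differed as well, and cannot be told apart from the longer fast. Ier2 fell by 0.89 on the log2 scale (SE 0.19, edgeR adjusted p = 0.00379), a call that stood under each of 26 alternatives. Egr1 fell by 1.58 (SE 0.49, edgeR adjusted p = 0.0356). Its call was lost without replicate 1 of either 8 h group, replicate 2 of the pericentral 24 h group or any periportal 24 h library (edgeR adjusted p of 0.056 to 0.102). Atf3 rose by 1.58 (SE 0.52, edgeR adjusted p = 0.0422), a call lost on leaving out any of 13 libraries (edgeR adjusted p of 0.0522 to 0.10), all but replicate 3 of the periportal fed, replicates 1 and 3 of the periportal 8 h, replicate 2 of the pericentral 24 h and replicate 1 of the periportal 24 h group. Fos stood at -1.31 (95% interval -2.57 to -0.05, edgeR adjusted p = 0.137). Jund stood at 0.40 (edgeR adjusted p = 0.0677) and was called without periportal 8 h replicate 1 or pericentral 24 h replicate 2 (edgeR adjusted p of 0.0201 and 0.0219).

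Myc, the growth factor-induced regulator of ribosome and cell cycle genes, was not called in any comparison. Its gene (ENSMUSG00000022346) spans chr15:61985391-61990374 on the plus strand. In pericentral libraries it stood at 19.0, 2.76 and 4.91 CPM when fed, at 5.90, 8.14 and 6.30 CPM after 8 h and at 6.33, 22.1 and 5.73 CPM after 24 h. In periportal libraries it stood at 5.03, 12.9 and 5.62 CPM when fed, at 5.57, 1.07 and 3.68 CPM after 8 h and at 5.64, 5.36 and 3.08 CPM after 24 h. Single libraries raised the group means of Myc, namely pericentral fed replicate 1, pericentral 24 h replicate 2 and periportal fed replicate 2. Pericentral 24 h replicate 2, its highest library, was the lowest of all 18 for Fos, Jun, Egr1 and Ier2.

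Ier3, known as a regulator of apoptosis downstream of NF-kB, was low and even. Its gene (ENSMUSG00000003541) spans chr17:35821684-35822923 on the plus strand. It ranged from 0.591 to 1.35 CPM over the 18 libraries, and no comparison called it. Fosb, the FOS relative known for its long-lived variant in neurons, was near absent. Its gene (ENSMUSG00000003545) spans chr7:19302696-19310051 on the minus strand. Fosb was at 0 in 15 libraries, where 3 counts would be 0.104 to 0.168 CPM, and stood at 0.276 and 0.311 CPM in pericentral fed replicates 2 and 3 and at 1.62 CPM in periportal 8 h replicate 1. The last is the library with the highest Fos.

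Replicates of a group differed more for these genes than for most. The biological coefficient of variation estimated by edgeR was 67.5% for Fos, 60.0% for Myc, 56.2% for Atf3, 56.0% for Egr1 and 50.7% for Jun, beside a median of 15.2% over all genes tested. It was 33.3% for Junb, 22.5% for Ier2, 18.6% for Ier3 and 18.3% for Jund. Set against the trend of the spread at the same abundance, Fos, Egr1, Jun, Myc and Junb were at or above the percentile 96.6 of all genes tested, while Ier3 was at 0.208. The log2 change at 8 h against fed was thus known with an SE of 0.59 for Fos and 0.19 for Ier2.

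**Figure D3:**
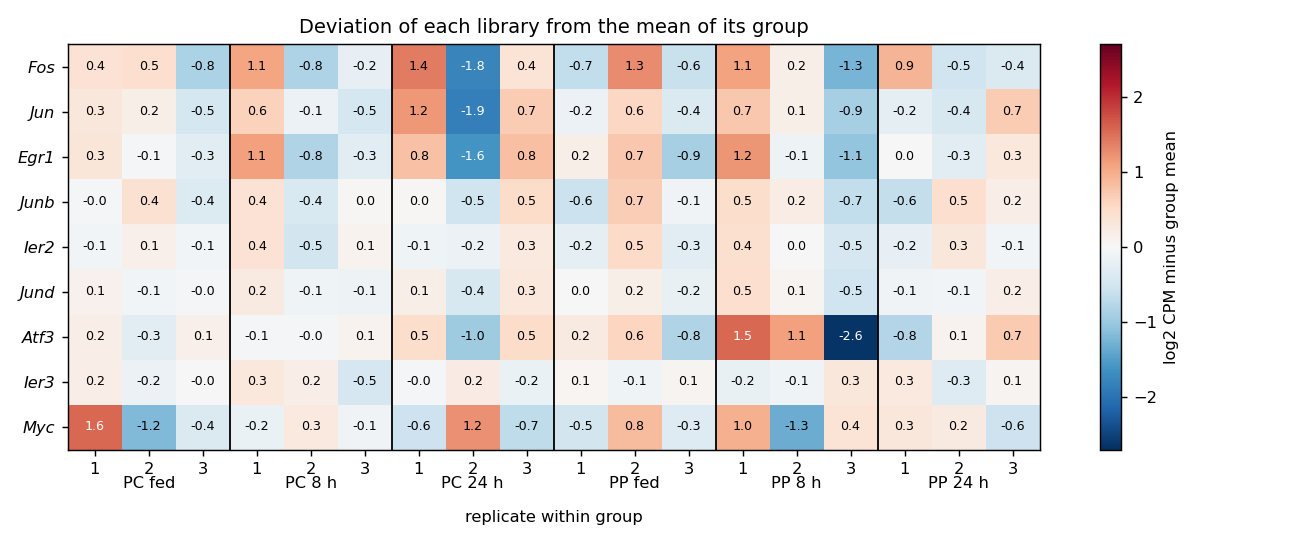
Log2 CPM of each gene (rows) minus the mean of its group, in each library (columns, by group and replicate). Red is above and blue below the group mean. Fos, Jun and Egr1 deviate together, low in pericentral 24 h replicate 2 and high in periportal 8 h replicate 1, while Myc deviates apart from them.

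The deviations from the group means ran together for several of the genes. Over the 18 libraries, Pearson's r of these deviations was 0.93 for Jund with Egr1, 0.90 for Jun with Egr1, 0.88 for Junb with Ier2, 0.87 for Fos with Egr1 and 0.83 for Fos with Jun. Fos and Junb were less alike, at 0.60, and Jun and Ier2 had 0.47. Myc lay between -0.28 and 0.04 with each gene but Ier3, with which it had 0.28. Ier3 was below 0 with each gene but Myc, down to -0.61 with Junb. Points of a library share its cells, its isolation and its depth, and only 12 of the 18 deviations are free, so these values are descriptive. Their relation to the isolation was not tested.

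Among 10071 other genes with a mean of at least 1 CPM, those most like each gene were named by Pearson's r over the 18 libraries. For the level of Jun the nearest was Dusp1 (r of 0.80, Spearman's rho of 0.61), an immediate early phosphatase. For Junb it was Stat5b (0.835), for Ier2 Abca2 (0.882), for Jund Pawr (0.869) and for Egr1 Col5a3 (0.858). Fos was nearest to Rbm5 (0.832), which was also among the nearest to Egr1 (0.834), and Atf3 was nearest to Ebna1bp2 (0.799). Ier3 was nearest to Egfr (0.818) and Myc to Swap70 (0.717, rho of 0.503). For deviations from the group means, Ddhd1 was nearest to Fos (0.886) and to Egr1 (0.874), Jmjd6 to Jun (0.926), Gdf15 to Jund (0.909) and Otud1 to Atf3 (0.907), followed by Nfe2l2 (0.903), a factor of the oxidative stress response. These r come from a search over many genes, with no test.

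The wider family of 42 other immediate early genes was read from a fixed list, of which 36 were tested. Between the zones, averaged over the states, 12 were called (33.3%, beside 20.3% of all genes), 11 of them higher in periportal libraries. Nr4a1, an orphan nuclear receptor, was among those higher. Its means at 8 h were 0.18 ± 0.215 CPM in pericentral and 3.59 ± 2.86 CPM in periportal libraries (SD, n = 3). The pericentral mean is near the level of 3 counts (0.104 to 0.168 CPM), so no fold is given. Btg2, which slows proliferation, differed by 1.46 (edgeR adjusted p = 0.00191), Dusp1 by 0.98 (edgeR adjusted p = 0.0195) and Zfp36, which speeds decay of cytokine mRNA, by 0.96 (edgeR adjusted p = 0.000313). Dusp5, a nuclear ERK phosphatase at no more than 2.25 CPM in any library, differed by 1.99 (edgeR adjusted p = 0.00349). Ccn1, a matrix protein controlled by YAP, was the gene called lower, at -1.22 (edgeR adjusted p = 0.00306). The median of the 36 was 0.29, with 27 above 0. Markers of endothelial, Kupffer and bile duct cells were higher in the same libraries, and their part in these values was not tested.

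At 8 h against fed, 10 of these 36 genes were called (27.8%, beside 26.4%), 8 higher and 2 lower. Cebpd, a leucine zipper factor of the acute phase response, rose by 2.02 (edgeR adjusted p = 4.32e-05), Dusp5 by 1.94 (edgeR adjusted p = 0.0182) and Btg1 by 1.45 (edgeR adjusted p = 9.48e-07). Klf10 fell by 1.08 (edgeR adjusted p = 0.0471) and Tiparp, a target of the aryl hydrocarbon receptor, fell by 0.74 (edgeR adjusted p = 0.00349). At 24 h against fed 15 were called (41.7%, beside 34.5%), 13 higher and 2 lower, with Dusp5 at 2.59, Cebpd at 2.55 and Gadd45b at 2.06. From 8 h to 24 h 6 were called (16.7%, beside 20.2%), with Maff at 2.07, Sik1 at 1.71 and Plk3 at 1.55 among the 5 higher and Plk2 at -0.73 the lower one. The always named Dusp1 stood at 0.18 at 8 h and -0.20 at 24 h against fed (edgeR adjusted p of 0.741 and 0.688).

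Dimer partners and antagonists of AP-1 and MYC were read as a list of 18, with 14 tested. At 8 h against fed 6 were called (42.9%, beside 26.4%). Mxd1, which competes with MYC for MAX, rose by 1.23 (edgeR adjusted p = 0.000125), with pericentral means of 2.11 ± 0.407 CPM fed and 5.19 ± 1.01 CPM at 8 h (SD, n = 3), and was at 1.24 above fed after 24 h (edgeR adjusted p = 8.97e-05). Mlx fell by 0.52 and Mafk rose by 0.60. At 24 h against fed 4 were called (28.6%, beside 34.5%), and from 8 h to 24 h 3 (21.4%, beside 20.2%). Between the zones 3 were called (21.4%, beside 20.3%). Mycn, a close relative of Myc, was among them and lower in periportal libraries. It passed the filter on low counts through pericentral libraries, so no fold is given. Mycn stood at 2.98 ± 0.454, 2.08 ± 1.10 and 0.470 ± 0.129 CPM in pericentral fed, 8 h and 24 h libraries (SD, n = 3) and at 0 to 0.2 CPM in the periportal libraries, where 3 counts are 0.104 to 0.168 CPM. For Myc itself the zones overlapped in fed mice and did not after 8 h or 24 h, with no call in either (edgeR adjusted p of 0.529 and 0.419).

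The kinases and factors that induce immediate early genes were read as a list of 27, with 25 tested. At 8 h against fed 12 were called (48.0%, beside 26.4%), 8 higher and 4 lower. Elk4, an SRF partner, rose by 0.70 (edgeR adjusted p = 2.25e-05) and Elk1 by 0.59 (edgeR adjusted p = 0.0188). Map2k6, a kinase of the p38 cascade, fell by 0.90 (edgeR adjusted p = 0.00626) and was then higher by 1.54 at 24 h than at 8 h (edgeR adjusted p = 0.000204). At 24 h against fed 11 were called (44.0%, beside 34.5%), with Crtc2, a CREB coactivator, higher by 0.80 (edgeR adjusted p = 1.12e-05) and the ERK target kinase Rps6ka1 at -0.99 (edgeR adjusted p = 0.000369). From 8 h to 24 h 6 were called (24.0%, beside 20.2%). Between the zones 4 were called (16.0%, beside 20.3%), with Elk3, another SRF partner, the largest at 0.94 (edgeR adjusted p = 0.0293). The part of other cell types, whose markers were higher in periportal libraries, was not tested for these zone values.

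Heat shock genes, which also respond to handling of cells, were read as a list of 17, all tested. At 8 h against fed 10 were called (58.8%, beside 26.4%), all lower, with a median log2 change of -0.68 over the list. Hspa8, the constitutive HSP70, had means of 2388 ± 260 CPM in fed and 680 ± 106 CPM in 8 h pericentral libraries (SD, n = 3) and fell by 1.54 over the zones (edgeR adjusted p = 2.45e-06). Hsph1 fell by 3.44 (edgeR adjusted p = 0.00934), Hsp90aa1 by 1.54 (edgeR adjusted p = 1.68e-05) and Dnajb1 by 0.83 (edgeR adjusted p = 0.00177). Their summed level was 4596 to 6565 CPM in fed, 2300 to 3005 CPM in 8 h and 3258 to 5354 CPM in 24 h libraries, so the 8 h libraries lay below all others. The 8 h libraries thus held the highest mean Egr1, Junb and Ier2 and the lowest heat shock sum of each zone, with Atf3 at its lowest mean. Whether handling acts on these genes was not tested.

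At 24 h against fed 9 heat shock genes were called (52.9%, beside 34.5%), 7 lower and 2 higher. The inducible Hspa1a was higher by 2.57 (SE 0.83, edgeR adjusted p = 0.0285), with 24 h libraries from 0.79 to 21.1 CPM, which overlapped the fed ones (0.588 to 4.46 CPM). Hspa1b, its near-identical copy, stood at 0.84 (edgeR adjusted p = 0.352), and the counts of the pair are uncertain since reads may be split between them. From 8 h to 24 h 5 were called (29.4%, beside 20.2%), all higher. Between the zones 3 were called (17.6%, beside 20.3%), all lower in periportal libraries, among them Hspb1 at -1.09 (edgeR adjusted p = 0.00126). Periportal 8 h replicate 1, the highest library for 5 of the 9 tested genes, had a heat shock sum of 2771 CPM, between the 3005 and 2300 CPM of replicates 2 and 3.

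**Figure D4:**
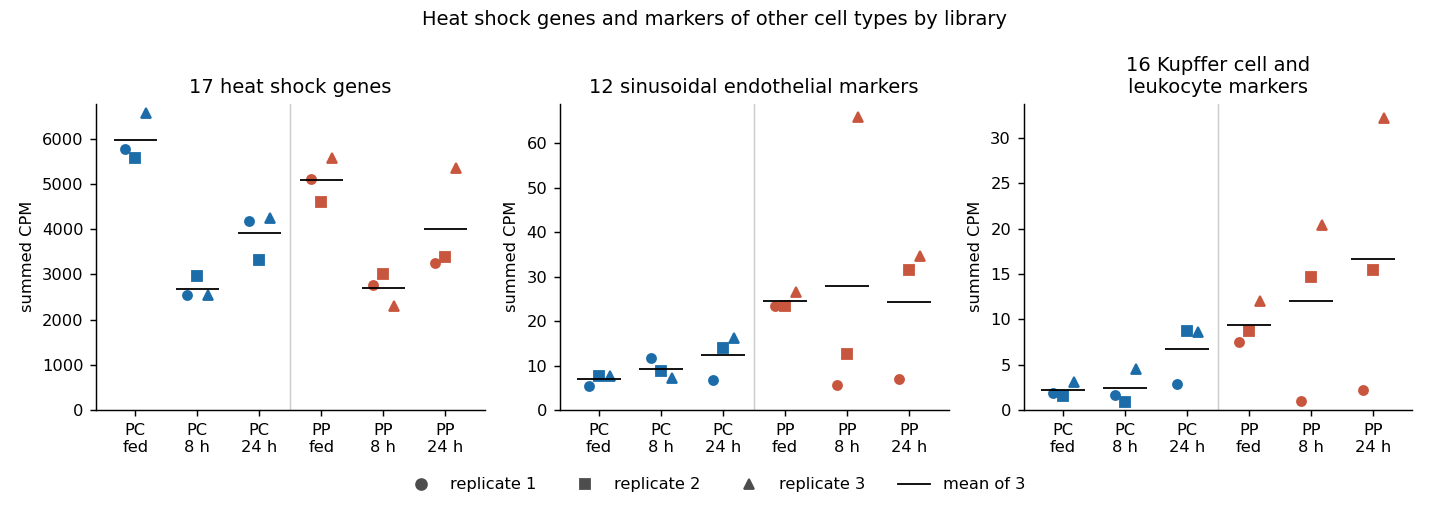
Summed CPM (vertical axis, linear, from 0) of 17 heat shock genes, 12 sinusoidal endothelial markers and 16 Kupffer cell and leukocyte markers in the 18 libraries, by zone and state. Symbols mark replicates and lines the mean of 3. Heat shock sums are lowest at 8 h in both zones, and marker sums of other cell types are uneven among periportal libraries, with periportal 8 h replicate 1 at 5.61 and 0.969 CPM.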

How the data were processed

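Estimated counts of each gene in the 18 libraries were deposited by the authors as 1 table, and kallisto 0.46.0 and the genome build mm10 are named per the submitters' processing notes. The annotation, the strand setting and the role of each step are not given in the sources used here. Per the labels' protocols, TRIzol and a column kit gave the total RNA, and a NEBNext Ultra kit the libraries. Of the columns, 0 were without a sample.

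Estimated counts were rounded, scaled with TMM and tested with edgeR 4.0.16 (robust quasi-likelihood F test, R 4.3.3) in 1 fit of all 18 libraries with a coefficient per group, giving 12 residual degrees of freedom. Genes were filtered with filterByExpr on the 6 groups. P-values of 13 contrasts were each adjusted by Benjamini-Hochberg over the 12477 genes tested, at a threshold of 0.05. DESeq2 1.42.0 and limma-voom (limma 3.58.1) were alternatives, beside other filters, scalings and samples. Shares of all genes called were computed for the main edgeR fit only. Counts of called genes under the alternatives, and counts at an unadjusted p, therefore have no such share beside them. Log2 CPM used a prior count of 2. The fit was checked on simulated counts.

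The members and the gene lists were chosen with earlier results of these data known. Named were the 10 genes, up to 3 called genes per direction from each related list in the 4 averaged comparisons, the always named Dusp1, Nr4a1, Btg2, Zfp36, Hspa1a, Hspa1b, Hspa8 and Dnajb1, and the 3 genes most like each member. Prdx2 and the cell type markers are named outside this rule. Locations are from GENCODE M21 on GRCm38 (mm10), lengths are the median of coding transcripts, and promoters are from RefSeq on GRCm38.p6. No replicates were the same library (lowest chi-square per gene of 35.9 over 18 pairs).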

Additional observations from a re-analysis of the deposited data

How the results depend on the processing

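Of 33 changes of single genes with an unadjusted p under 0.05, 0 reversed under the 26 alternatives, and 7 of the 14 called ones kept their call under each: Ier2 and Junb by zone over the states, Egr1, Junb, Ier2 and Atf3 at 8 h against fed, and Ier2 from 8 h to 24 h. Counts of called genes that differed from those reported, apart from single libraries left out, were these. With no filter beyond 1 count, 0 were called between the zones at 8 h and at 24 h, 0 at 8 h against fed in either zone, 0 at 24 h against fed over the zones, and 1 from 8 h to 24 h. With scaling that left out the 20 most abundant genes, 0 were called between the zones at 8 h and at 24 h, 0 at 8 h against fed in periportal libraries, 0 at 24 h against fed over the zones and 2 from 8 h to 24 h, where Atf3 lost its call (edgeR adjusted p = 0.0549). That scaling moved the median of all genes to -0.11 for periportal 24 h against fed and to -0.10 for the zone difference at 8 h. With only the groups compared in the fit, 2 were called between the zones when fed, 0 at 8 h, 2 at 8 h against fed in pericentral and 0 in periportal libraries, and 1 from 8 h to 24 h. A filter at a mean of 1 CPM gave 2 at 8 h against fed in periportal libraries. DESeq2 called 2 between the zones when fed, 6 over the states, 5 at 8 h against fed over the zones, 4 at 8 h against fed in periportal libraries and 5 from 8 h to 24 h. Limma-voom called 4 between the zones over the states, 5 at 8 h against fed over the zones, 4 at 8 h against fed in periportal libraries, 0 at 24 h against fed over the zones and 2 from 8 h to 24 h.

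Leaving out each library in turn gave 0 to 1 calls between the zones at 8 h and at 24 h, 2 to 6 over the states, 0 to 2 at 8 h against fed in each zone, 0 to 1 at 24 h against fed in pericentral libraries and over the zones, 4 to 5 at 8 h against fed over the zones, and 1 to 3 from 8 h to 24 h. With the replicate block, 4 genes were called between the zones over the states (Fos, Junb, Egr1 and Ier2), 0 at 24 h, 0 at 8 h against fed in pericentral libraries and 2 from 8 h to 24 h. The replicate numbers share no stated source, and same-numbered libraries of different groups deviated with r from -0.12 to 0.21 (median 0.03, 7 of 45 pairs over 0.1), so the block is given only as a check. With 3 libraries per group and the wide spread of Fos, Jun, Egr1, Atf3 and Myc, changes of moderate size in these genes were not detectable, and Atf3 and Ier3 rest on low counts.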
